A study of Homo sapiens with 3 samples.

Results

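The mitochondrially encoded subunits of cytochrome c oxidase (MT-CO1, MT-CO2 and MT-CO3), of the cytochrome bc1 complex (MT-CYB) and of ATP synthase (MT-ATP6 and MT-ATP8) were followed in untreated HEK293T cells. These 6 genes were chosen by name out of 35880 gene symbols, with no filter on their values. Earlier results of these data were known when the choice was made. Each of the 6 was listed with 1 transcript. HEK293T is an established line from human embryonic kidney that expresses the large T antigen of a simian virus. The cells grew in high-glucose DMEM with 10% serum to 70% confluence, and 3 libraries of Trizol-extracted, oligo-dT captured RNA, labelled biological replicates 1, 2 and 3, formed the only group. Separate cultures are not stated for the replicates, and every p-value therefore reflects variation among the 3 libraries alone, part or all of which may be technical. All 10 markers of the line, from VIM at 401 ± 8.63 TPM (SD, n = 3) to PAX2 at 1.57 ± 0.0836 TPM, lay above 1 TPM, against 58.5% of all symbols tested. TPM is the length-corrected share of transcripts, scaled to the same total in every library. Among markers of blood, endothelium, fibroblasts, basal epithelium and mature kidney, 8 lay below 1 TPM (33.9% of all symbols tested did), COL3A1 at 0.922 ± 0.0966 TPM was undecided and 6 were listed at 0.

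The human mitochondrial genome is copied into long RNAs from both strands, and transfer RNA genes between the coding genes mark where these RNAs are cut. Most of the coding pieces receive poly(A) tails inside the mitochondrion, which lets oligo-dT capture them. MT-CO1, MT-CO2 and MT-CO3 form the core of cytochrome c oxidase (complex IV), where oxygen is reduced, and MT-CO1 holds the site of that reaction. MT-CYB is the only mitochondrially encoded subunit of complex III, which passes electrons from ubiquinol to cytochrome c. MT-ATP6 forms the proton path of ATP synthase (complex V), and the small MT-ATP8 protein sits beside it in the membrane.

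All 6 genes lie on the strand annotated as plus in hg38, and their layout shapes what can be counted for each. In GENCODE release 29, MT-CO1 spans chrM:5904-7445, MT-CO2 chrM:7586-8269, MT-ATP8 chrM:8366-8572, MT-ATP6 chrM:8527-9207, MT-CO3 chrM:9207-9990 and MT-CYB chrM:14747-15887, and each is annotated as a protein-coding gene whose entry holds the coding sequence. MT-ATP8 and MT-ATP6 share 46 bases in different reading frames and are known to be carried on 1 message, and MT-ATP6 and MT-CO3 share 1 base. The junctions are shown because reads from them cannot be assigned to 1 gene by position. In the first sequence the capitals mark the start codon of MT-ATP6 and then the stop codon of MT-ATP8. In the second they mark the stop codon of MT-ATP6 (TAA) and the start codon of MT-CO3 (ATG), which have an A in common.
MT-ATP8 into MT-ATP6, chrM:8513-8576: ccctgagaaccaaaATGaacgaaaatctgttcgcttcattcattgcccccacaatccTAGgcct
MT-ATP6 into MT-CO3, chrM:9188-9224: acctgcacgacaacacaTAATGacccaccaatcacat

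The 3′ ends of the entries differed in how they close the reading frame, which is shown by the last 30 bases of the 4 entries that do not end inside another one's start. Capitals mark the last codon, or the part of it that the entry holds. MT-CO2 ended in TAG and MT-CO1 in AGA, which is a stop in mitochondria. MT-CO3 and MT-CYB ended in a lone T, 1 base past the last full codon. In such messages the poly(A) tail supplies the A residues that complete a TAA stop.
MT-CO1, chrM:7416-7445: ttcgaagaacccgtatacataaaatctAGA
MT-CO2, chrM:8240-8269: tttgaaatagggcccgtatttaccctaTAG
MT-CO3, chrM:9961-9990: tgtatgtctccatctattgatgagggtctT
MT-CYB, chrM:15858-15887: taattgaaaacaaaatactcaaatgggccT

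All 6 entries opened with ATG, and all used TGA and ATA inside the frame, which mitochondria read as tryptophan and methionine. In-frame TGA ranged from 2 in MT-ATP8 to 16 in MT-CO1, and ATA from 5 in MT-ATP8 to 25 in MT-CO1. The sequences were poor in G, from 6.28% of bases in MT-ATP8 to 16.2% in MT-CO1, and richer in C, from 30.03% in MT-CO1 to 34.3% in MT-CYB. GC content lay between 44.2% and 46.6% in 5 of the genes and was 39.6% in MT-ATP8.

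The 6 genes together held 4.32%, 4.48% and 4.27% of all TPM in replicates 1, 2 and 3 (4.36% ± 0.107, SD, n = 3). The 7 mitochondrially encoded genes of complex I, the NADH dehydrogenase, held 2.26% ± 0.0361. As a share of estimated reads, which counts a long message more, the 6 genes took 1.75% ± 0.0329. TPM keeps no depth. The deposited table has 1 column of estimated counts that names no library, sums to 33184885 and, divided by effective length and rescaled, equals replicate 1's TPM to a relative 1.08e-05. In that column MT-CO1 had 213114 estimated reads, MT-CO3 103068, MT-CO2 87610, MT-ATP6 83791, MT-CYB 79291 and MT-ATP8 12409. Counting error alone was therefore 0.217% for MT-CO1 and 0.898% for MT-ATP8 in that quantification, and the depth of the other libraries is not known.

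Among the oxidase subunits, the values of MT-CO2 were 7840 TPM in replicate 1, 8035 in replicate 2 and 7689 in replicate 3 (7854 ± 174, SD, n = 3). MT-CO3 stood at 7610, 7897 and 7675 TPM (7727 ± 151), and MT-CO1 at 6756, 6846 and 6668 TPM (6757 ± 89.2). The values of MT-CO2 and MT-CO3 overlapped, and both lay above every value of MT-CO1. The ATP synthase subunit MT-ATP6 was at 7545, 7711 and 7307 TPM (7521 ± 203), inside the range spanned by the oxidase genes. MT-ATP8 was highest of all symbols in each library, at 9882, 10601 and 9812 TPM (10098 ± 437). MT-CYB was lowest of the 6, at 3601, 3656 and 3527 TPM (3595 ± 64.7), with no overlap with any other member. By mean TPM the 6 genes ranked 1 (MT-ATP8), 2 (MT-CO2), 3 (MT-CO3), 4 (MT-ATP6), 6 (MT-CO1) and 24 (MT-CYB) of 35880 symbols.

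**Figure D1:**
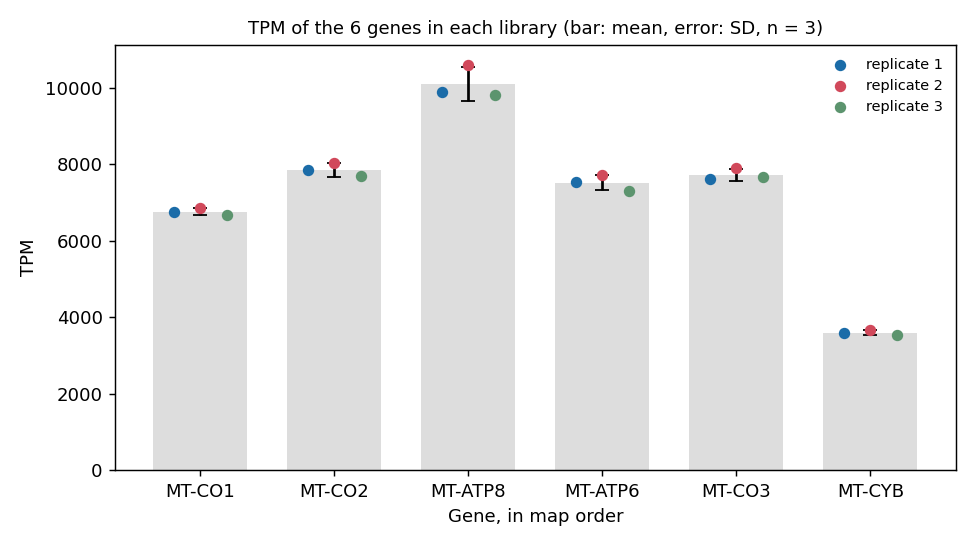
TPM of the 6 genes (vertical axis) in map order, with 1 point per library, the mean as a bar and the SD as the error (n = 3). MT-CYB, at 3527 to 3656 TPM, sits below the other 5 genes, and replicate 2 is the highest point of every gene.

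Differences between the genes were tested within libraries, as log2(TPM + 0.01) of 1 gene minus that of another, with limma fitted over all 21990 symbols above 0 and Benjamini-Hochberg adjustment over all of them. Of the 15 pairs among the 6 genes, 13 differed at adjusted p under 0.05, 12 did not overlap between libraries, and all 15 had the same direction in 3 of 3 libraries. The count of 13 is read against a background in which 100% of the other symbols (21983 to 21989 of 21989) differed from the member they were compared with. Shares over all symbols were not computed for overlap or direction, so those counts have no background. For each pair the larger adjusted p of the 2 fits, with either gene as the reference, is given. An exact sign-flip permutation test of 3 libraries cannot go below p = 0.25.

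MT-CYB stood apart from each of the others. MT-CO1 exceeded it by 0.91 on the log2 scale (SE 0.0134, limma adjusted p = 2.72e-08), or 1.88-fold. The excess was 1.13 for MT-CO2, 1.104 for MT-CO3, 1.07 for MT-ATP6 and 1.49 for MT-ATP8, with limma adjusted p from 1.85e-08 to 5.26e-08. Within the oxidase, MT-CO2 exceeded MT-CO1 by 0.22 (SE 0.0184, limma adjusted p = 6.28e-05) and MT-CO3 exceeded it by 0.19 (SE 0.0183, adjusted p = 0.000127). MT-CO2 and MT-CO3 could not be separated: their difference ran from 0.0026 to 0.043 over the libraries (limma adjusted p = 0.275). Nor could MT-CO3 and MT-ATP6, which share a base, with differences from 0.012 to 0.071 (limma adjusted p = 0.18). MT-ATP6 exceeded MT-CO1 by 0.15 (SE 0.0240, limma adjusted p = 0.00105), a call that ended without replicate 1 (0.15, adjusted p = 0.0665). The smallest called difference, 0.063 between MT-CO2 and MT-ATP6 (SE 0.0234, limma adjusted p = 0.0412), was not called without replicate 1 (adjusted p = 0.398), with pseudocounts of 0.1 or 1 (0.106 and 0.159) or without a mean-variance trend (0.206).

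The place of MT-ATP8 depended on the length by which its reads were divided. Its entry is 207 bases long, and the deposited effective length (the number of positions where a fragment can start) is 52.9 bases, or 25.5% of it. That share was 68.7% for MT-ATP6, 68.8% for MT-CO2, 72.7% for MT-CO3, 81.3% for MT-CYB and 86.1% for MT-CO1. In long transcripts the effective length was shorter than the transcript by a median of 213.76 bases, a difference that exceeds the whole length of MT-ATP8. With reads divided by whole length, MT-ATP8 fell from the highest to the lowest of the 6, at 3302, 3545 and 3283 TPM recomputed on whole length (3376 ± 146, SD, n = 3), and MT-CO1 became the highest at 7618 ± 98.5. MT-ATP8 was 1.34-fold ± 0.0325 the level of MT-ATP6 by effective length and 0.499-fold ± 0.0121 by whole length. All 5 pairs with MT-ATP8 reversed, and so did MT-CO2, MT-CO3 and MT-ATP6 against MT-CO1 and MT-CO2 against MT-CO3. MT-CO3 and MT-ATP6, undecided by effective length, differed by 0.12 on the log2 scale by whole length (limma adjusted p = 0.00283). The excess of the oxidase genes and MT-ATP6 over MT-CYB kept its direction.

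When the reads of MT-ATP8 and MT-ATP6 were joined over the 842 bases of their joint message, its level was 6448, 6632 and 6265 TPM (6448 ± 184, SD, n = 3). That lay below MT-CO1 in each library, by 0.068 on the log2 scale (SE 0.0265, limma adjusted p = 0.0465), below MT-CO2 by 0.28 (SE 0.0258, adjusted p = 6.15e-05) and below MT-CO3 by 0.26 (SE 0.0274, adjusted p = 0.000131). It stayed above MT-CYB by 0.84 (SE 0.0248, limma adjusted p = 1.94e-07). A fragment that runs from sequence found in MT-ATP8 alone into sequence found in MT-ATP6 alone has no entry of its own in the annotation, and what became of such fragments was not tested. The joint effective length of 628 bases counts their positions, whereas the entries that supply the reads have effective lengths of 52.9 and 467.6 bases. A smaller divisor would raise the joint level, so its place below MT-CO1, MT-CO2 and MT-CO3 depends on this choice.

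**Figure D2:**
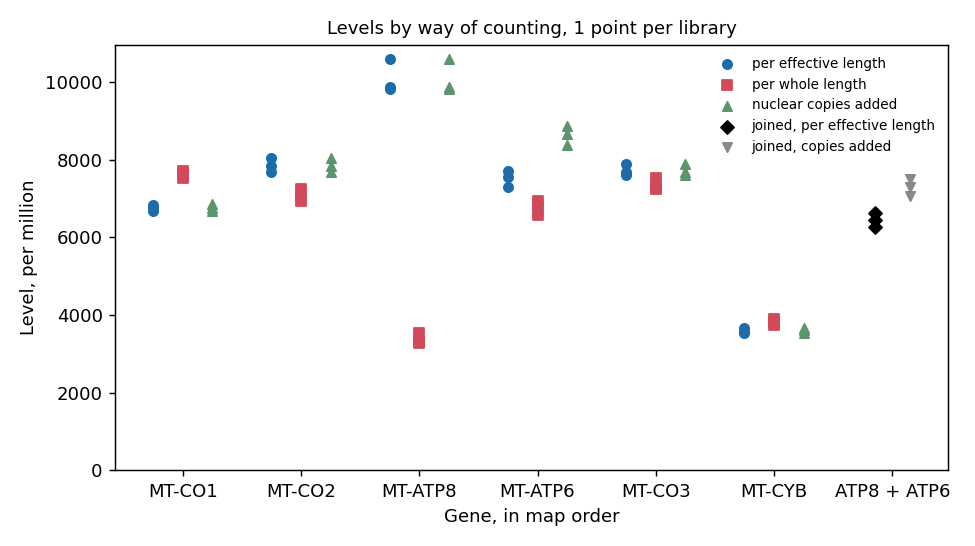
TPM (vertical axis) of each gene and of the joined MT-ATP8 and MT-ATP6 reads, 1 point per library, with reads divided by effective length, by whole length, or with reads of nuclear copies added. MT-ATP8 moves from 9812 to 10601 down to 3283 to 3545 TPM, and MT-CYB stays between 3527 and 3889.

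The nuclear genome holds old copies of mitochondrial DNA, and reads of the 6 genes can be assigned to them. Of 179 symbols named as pseudogene copies of the 6 genes, 142 were listed at 0 and 4 had a mean of at least 1 TPM. MTATP6P1, on chromosome 1 (chr1:633696-634376, hg38, an unprocessed pseudogene), was listed at 1132, 1159 and 1084 TPM (1125 ± 38.2, SD, n = 3), the rank of 134 among all symbols. The next was MTCO1P40 on chromosome 17 (chr17:53105734-53106358) at 11.9 ± 1.60 TPM. MTATP6P1 stood at 15.01%, 15.03% and 14.83% of the TPM of MT-ATP6 in replicates 1, 2 and 3.

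MTATP6P1 lies in a row of copies on chromosome 1 that have the map order of the mitochondrial genes: MTCO1P12, MTCO2P12, MTATP8P1, MTATP6P1 and MTCO3P12, from 631074 to 634922. MTATP8P1 and MTCO3P12 are named although their means are below 1 TPM, and were chosen after their values were seen. The 5 copies resembled their mitochondrial genes to a like degree: identity was 98.6% for MTCO1P12, 97.9% for MTCO2P12, 97.6% for MTATP8P1, 98.5% for MTATP6P1 and 98.2% for MTCO3P12. Their listed levels did not resemble each other. MTCO1P12 stood at 2.03, 1.72 and 2.05 TPM, MTCO2P12 at 0.642, 1.43 and 0.996, MTCO3P12 at 0.784, 1.40 and 0.774, and MTATP8P1 at 0, 0.763 and 0. Each of these lies far below every value of MTATP6P1.

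**Figure D3:**
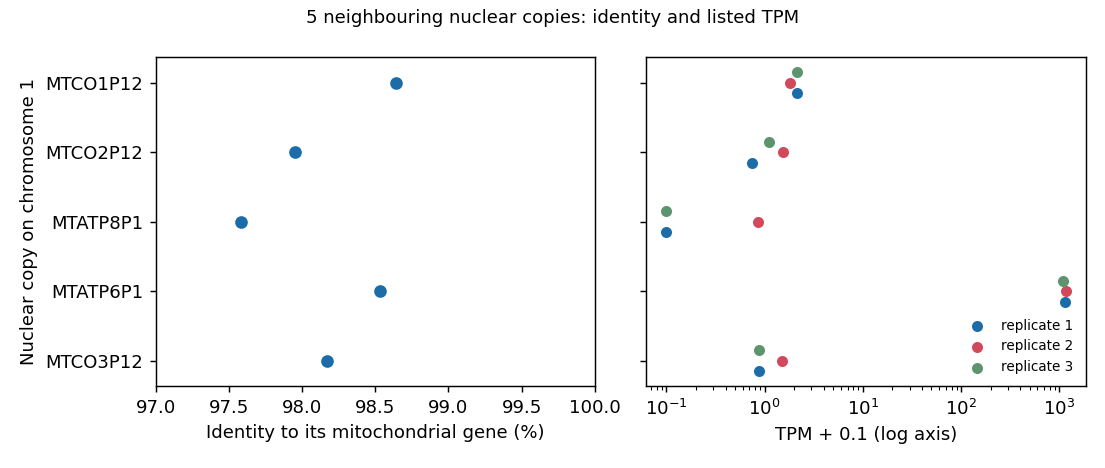
Percent identity of 5 neighbouring copies on chromosome 1 to their mitochondrial genes, over the length of the copy (left), and their TPM in each library plus 0.1 on a log axis (right). Identity runs from 97.6% to 98.6%, whereas MTATP6P1, near 1125 TPM, is the only 1 of the 5 above 3 TPM.

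In the reference sequences MT-ATP6 and MTATP6P1 have the same length, 681 bases, and differ at 10 of them. The mitochondrial DNA of this line was not examined, so its own bases at these positions are not known. Counted from the first base of the coding sequence, with the base of MT-ATP6 first, the differences are G19A, C129T, A151C, A175G, A192G, A334G, C417T, C534A, C549T and C642T. The stretch where 4 of them lie closest is shown for both genes, with the differing bases in capitals. Of the 651 words of 31 bases in MT-ATP6, 399 (61.3%) also occur in MTATP6P1, and the longest run without a difference is 141 bases.
MT-ATP6, chrM:8640-8733: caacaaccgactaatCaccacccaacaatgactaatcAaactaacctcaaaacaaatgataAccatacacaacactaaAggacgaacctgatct
MTATP6P1, chr1:633809-633902: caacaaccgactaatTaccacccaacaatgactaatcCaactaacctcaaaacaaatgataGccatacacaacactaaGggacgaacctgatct

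The split of reads between these entries is uncertain for several of the 6 genes. The share of 31-base words found in a transcript of any other symbol was 66.7% for MT-CO1, 63.7% for MT-ATP6, 50.5% for MT-CO2, 44.96% for MT-CO3, 44.6% for MT-ATP8 and 4.95% for MT-CYB. With the reads of all named copies added, MT-ATP6 rose to 8678, 8871 and 8392 TPM (8647 ± 241, SD, n = 3) and passed MT-CO2 and MT-CO3. It then exceeded MT-CO2 by 0.14 on the log2 scale (limma adjusted p = 0.00204) and MT-CO3 by 0.16 (adjusted p = 0.00138). Adding the copies changed MT-CO1 from 6757 to 6763 TPM and MT-CYB from 3594.5 to 3595.4. The joined MT-ATP8 and MT-ATP6 message reached 7286 ± 212 TPM with the copies of both genes added. It then lay above MT-CO1 by 0.11 on the log2 scale (limma adjusted p = 0.00893) and below MT-CO3 by 0.085 (adjusted p = 0.0268). With the same joint effective length of 628 bases, its place against MT-CO1 thus turned on where the reads of MTATP6P1 belong. Which entry those reads came from was not tested.

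Against the mitochondrially encoded complex I genes, the 6 genes were mostly higher. Of 42 pairs of 1 of the 6 with 1 of the 7, the member was higher in 39, lower in 2 and undecided in 1 by limma. By effective length MT-CYB accounted for the exceptions. It lay below MT-ND4L (5216 ± 191 TPM) and MT-ND3 (4779 ± 132 TPM), the shortest complex I entries, by 0.54 and 0.41 on the log2 scale (limma adjusted p = 1.22e-05 and 2.69e-06), and could not be separated from MT-ND4 at 3653 ± 60.9 TPM (adjusted p = 0.144). Those short entries had effective lengths of 37.8% and 43.7% of the whole, and by whole length both stood below MT-CYB, at 2583 ± 95.9 and 2733 ± 75.7 against 3823 ± 67.6 whole-length TPM. On that scale MT-CYB stood below MT-ND4 (4040 ± 66.4) in each library, and MT-ATP8 (3376 ± 146) stood below MT-ND4 and MT-ND2 (3595 ± 76.3) in each library; these differences were not tested. MT-CYB exceeded MT-ND2 (3455 ± 72.8 TPM) by 0.057 (limma adjusted p = 0.0164) and MT-ND1 (3051 ± 85.2 TPM) by 0.24 (adjusted p = 2.06e-05). Its excess was 1.20 over MT-ND5 (1564 ± 29.9 TPM) and 1.97 over MT-ND6 (918 ± 87.9 TPM), which precede MT-CYB on the map and of which MT-ND6 is read from the opposite strand (limma adjusted p = 8.89e-09 and 2.01e-07). Whether oligo-dT captured MT-ND6 RNA as well as the others was not tested, and the strand setting of the reads is not given. Every pair with MT-ND6 carries this limit. Among all symbols, 20 of 21989 (0.091%) were called higher than MT-CYB. The same share was 0.0182% for MT-CO1, 0.0091% for MT-ATP6, 0.00455% for MT-CO2, 0.00455% for MT-CO3 and 0% for MT-ATP8.

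Replicate 2 was the highest library for 6 of 6 genes and for 6 of the 7 complex I genes, the exception being MT-ND4L. Replicate 3 was the lowest for 5 of 6, and replicate 1 for MT-CO3. Among all 1640 symbols of mean TPM of at least 100, 28.8% were highest in replicate 2 and 35.9% lowest in replicate 3. The distances were small: replicate 2 lay above the gene mean by 0.019 for MT-CO1, 0.025 for MT-CYB, 0.032 for MT-CO3, 0.033 for MT-CO2, 0.036 for MT-ATP6 and 0.071 for MT-ATP8 on the log2 scale. The coefficient of variation ran from 1.32% for MT-CO1 to 4.33% for MT-ATP8, in each case above the counting error of the deposited estimated counts.

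None of the 6 genes was called for spread between libraries beyond genes of its level (F-test adjusted p from 0.909 to 0.964). The test set the variance of a gene against the trended prior variance of limma. It called 0% of symbols (0 of 13475 of mean TPM of at least 1), so the lack of a call does not show usual spread. The log2 SD of each of the 6 lay above its prior, but the share of all symbols above theirs was not computed. The mitochondrially encoded complex I genes also lay above theirs, from F = 2.68 for MT-ND5 to 52.3 for MT-ND6. Among the 6 the log2 SD ran from 0.0190 against 0.0115 for MT-CO1 (F = 2.72) to 0.0617 against 0.0104 for MT-ATP8 (F = 35.1). MT-ATP8 is the highest of all symbols, so its prior lies at the end of the trend. The prior follows mean TPM, not read number, and MT-ATP8 had the fewest estimated reads of the 6 (12409, counting error 0.898%). Its F therefore does not compare it with genes of like level and read number. At an unadjusted p under 0.05, 554 symbols (4.11%) passed, among them MT-ATP8, MT-ATP6 and MT-CO2. Without replicate 2, 0 of the 6 passed at that level.

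**Figure D4:**
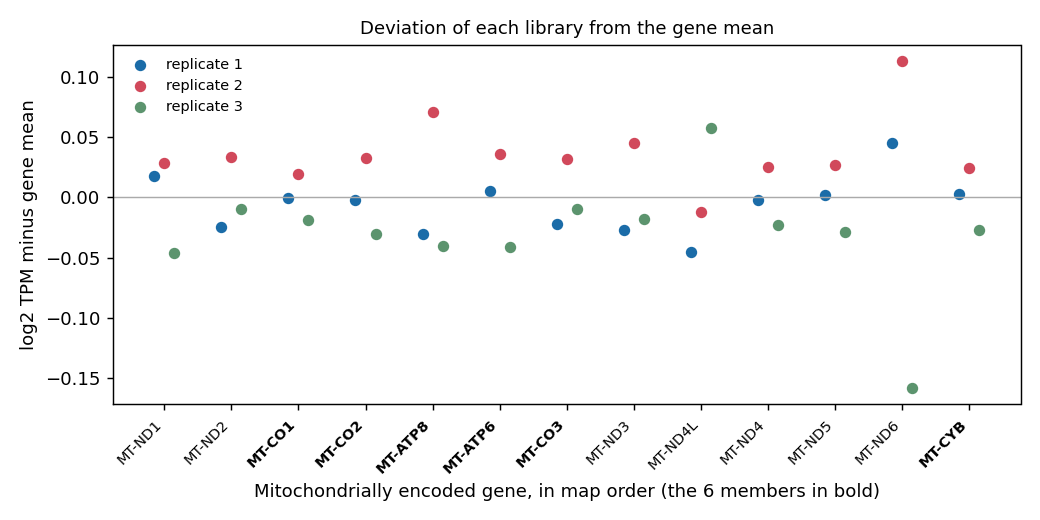
Deviation of each library from the gene mean (log2 TPM, vertical axis) for the 13 mitochondrially encoded protein genes in map order, with the 6 genes in bold and 1 point per library. Replicate 2 is the highest point in all of them except MT-ND4L, and MT-ND6 has the widest spread.

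Complexes III, IV and V are built from subunits of both genomes, and the nuclear-encoded ones were far less abundant per length. Of 42 nuclear-encoded genes listed for the complexes, 40 lay below MT-CYB by limma and COX4I2 and COX6A2 were listed at 0, against a background of 99.9% of all symbols below MT-CYB. In complex IV, MT-CO1 was 14.5-fold, 14.5-fold and 14.2-fold the median of the 11 nuclear subunits of at least 1 TPM, and 6.76-fold ± 0.104 (SD, n = 3) the highest, COX7C at 999 ± 14.97 TPM. COX6C, the middle of the whole list of 15, stood at 322 ± 9.88 TPM, COX4I1, a regulatory subunit, at 692 ± 8.01 TPM, and NDUFA4, the lowest of the 11, at 88.4 ± 2.40 TPM. The tissue-restricted isoform genes COX6B2 (0.489 ± 0.125 TPM) and COX7A1 (0.207, 0 and 0 TPM) lay below 1 TPM, and COX4I2 and COX6A2 are also isoforms of restricted tissues.

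In complex III, MT-CYB was 11.5-fold, 11.5-fold and 11.4-fold the median of 9 nuclear subunits. The highest was UQCRH at 820 ± 17.1 TPM, the core protein gene UQCRC1 stood at 404 ± 17.5 TPM and the cytochrome c1 gene CYC1 at 248 ± 1.99 TPM. The middle gene, UQCR10, stood at 313 ± 4.62 TPM. UQCRFS1, the Rieske iron-sulfur protein, was lowest at 39.8 ± 0.409 TPM. In ATP synthase, MT-ATP6 was 16.1-fold, 16.4-fold and 15.8-fold the median of 18 nuclear genes, from ATP5F1E, the epsilon subunit, at 52.3 ± 1.57 TPM to ATP5MF at 953 ± 18.8 TPM. The genes of the catalytic head, ATP5F1B and ATP5F1A, stood at 886 ± 6.18 and 418 ± 4.23 TPM. ATP5MC1, which encodes the rotor ring subunit, was the middle gene at 514 ± 5.97 TPM.

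**Figure D5:**
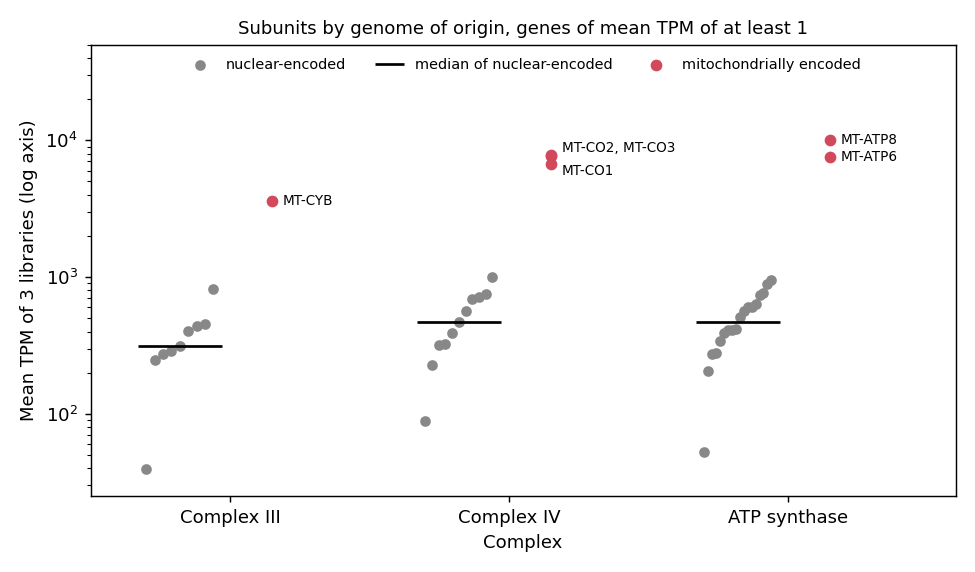
Mean TPM over 3 libraries (log axis) of nuclear-encoded genes (grey, with their median as a line) and of the 6 mitochondrially encoded genes (red) of complex III, complex IV and ATP synthase, for genes of at least 1 TPM. Each red point lies above all grey points, of which COX7C is the highest at 999 TPM.

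Genes listed for the making, processing and stability of mitochondrial RNA were all expressed. The list also holds POLG (147 ± 14.2 TPM) and TWNK (36.4 ± 0.532 TPM), which act in copying mitochondrial DNA. All 24 of that list lay above 1 TPM by limma (median 58.3 TPM), against 58.5% of the 21990 symbols tested and a median of 4.29 TPM over these. The RNA polymerase POLRMT stood at 71.5 ± 1.69 TPM and the transcription and packaging factor TFAM at 119 ± 1.1 TPM. SLIRP was the highest of the list at 492 ± 5.08 TPM, whereas its partner LRPPRC, with which it protects mitochondrial messages, was at 108 ± 1.39 TPM. The poly(A) polymerase MTPAP was near the low end at 18.5 ± 0.999 TPM. FASTKD5, known for processing at ends that no transfer RNA marks, stood at 22.7 ± 0.221 TPM, and MTERF1 was lowest at 16.8 ± 1.84 TPM.

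All 31 genes listed for translation and assembly of the 6 proteins also lay above 1 TPM by limma (median 56.8 TPM). They include SLC25A26 (31.7 ± 0.512 TPM), which encodes a metabolite carrier. The share over all 21990 symbols tested was 58.5%, with a median of 4.29 TPM. TACO1, the translational activator of MT-CO1, was at 66.7 ± 1.36 TPM. The copper chaperones SCO1 and SCO2, which supply MT-CO2, were at 57.7 ± 2.71 and 56.8 ± 0.629 TPM, and the oxidase assembly factor SURF1 at 21.8 ± 0.622 TPM. TMEM70, needed to assemble ATP synthase, was at 59.9 ± 0.768 TPM. COX11, which delivers copper to MT-CO1, was highest at 186 ± 5.03 TPM, and COX19 lowest at 7.98 ± 0.0117 TPM. LRPPRC is in both lists, so they hold 54 different genes.

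Outside the mitochondrial genome, the symbols nearest in level (smallest root mean square difference of log2 TPM over the 3 libraries) came from the translation apparatus. The nearest to MT-CO1 was the elongation factor EEF1A1 at 6828, 6828 and 6683 TPM, with a difference of 0.00931, followed by RPL41 with 0.148. The same symbols were nearest to MT-CO2, MT-CO3, MT-ATP6 and MT-ATP8, at differences of 0.151 to 0.576 for EEF1A1. Those members rank 1 to 4 of all symbols. For them the search could return only the highest symbols outside the mitochondrial genome, whatever their function. The nearest to MT-CYB were the ribosomal protein genes RPL8 (3622 ± 31.5 TPM, difference 0.0155) and RPL15 (3569 ± 16.8 TPM, difference 0.0281).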

How the data were processed

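RNA of 3 HEK293T libraries was quantified with kallisto, and the submitters' processing notes name hg38 as the build; version, options, strand setting and transcript release are not given in the sources used here. A deposited table gives, per transcript, TPM scaled by the authors within each library, their mean TPM, the transcript length, the effective length and 1 column of estimated counts for no named library. That column sums to 33184885 and was used only to give the counting error.

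TPM was summed by gene symbol. Tests were made with limma 3.58.1 in R 4.3.3: moderated one-sample tests of log2(TPM + 0.01) against 1 TPM or against a member in the same library, with the prior variance trended on mean level and p-values adjusted (Benjamini-Hochberg) over all symbols above 0, called at adjusted p under 0.05. The scripts were tested on simulated data. Reads per library were taken as proportional to TPM times effective length, with the single deposited effective length for all libraries. Sequences and positions came from GENCODE release 29 (166890 of 185299 transcripts matched by identifier, all 6 members with equal length), which may not be the release the authors used. Shared words of 31 bases were searched on the transcript strand. PRORP and FASTKD4 are listed in the file under older symbols.

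The members and gene lists were chosen with earlier results of these data known. Named genes were the members, the other mitochondrially encoded genes, the highest and lowest and textbook genes of each list, those not above 1 TPM, the 2 nearest in level and copies of at least 1 TPM. The result of 1 marker of other cell types is not reported here.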

Additional observations from a re-analysis of the deposited data

How the results depend on the processing

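The 6 genes' share of TPM (4.36%) became 4.66% once the total left out the mitochondrially encoded genes, 4.47% with copy reads added and 3.601% by whole transcript length. It moved by less than the SD under median-of-ratios scaling and without any 1 replicate. Leaving the mitochondrially encoded genes out of the total shifted the median gene by 0.098 on the log2 scale. By whole length these log2 differences reversed: MT-CO2 minus MT-CO1 (-0.11), MT-CO3 minus MT-CO1 (-0.050), MT-ATP6 minus MT-CO1 (-0.17), MT-CO2 minus MT-CO3 (-0.057), and MT-ATP8 minus MT-CO1 (-1.17), MT-CO2 (-1.07), MT-CO3 (-1.12), MT-ATP6 (-1.002) and MT-CYB (-0.18). With copies added MT-CO2 minus MT-ATP6 (-0.14) and MT-CO3 minus MT-ATP6 (-0.16) reversed. Both follow from how those alternatives are built. The count of 13 differing pairs (11 to 13 without 1 replicate, 12 to 15 of the 15 pairs otherwise) stayed within 1.5 times under every alternative run. So did the 40 nuclear-encoded genes below MT-CYB (38 to 40) and the 54 pathway genes above 1 TPM. The count of members called for excess spread stayed at 0, by a test that called no symbol under any of its settings. With MT-ATP8 and MT-ATP6 joined, 9 of 10 pairs differed, with or without copy reads; the version with copy reads was chosen after seeing the data. No paired analysis was possible because there is 1 group. TPM keeps no depth, so counting error is known for 1 quantification only.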
